A study of Moricandia suffruticosa and Brassica napus with 23 samples.

Results

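The pectin-modifying enzymes of Brassica napus (oilseed rape) leaves are described here under drought, under heat and under normal watering. They were chosen from the deposited gene table by 2 criteria: the short description had to contain the word pectin, and the value had to reach 1 in at least 3 of the 9 leaf libraries. Of 758 genes so described, 186 met both, from a table of 101040 genes, and a further 324 of the 758 were listed at 0 in all 9 libraries. The 186 members matched 78 Arabidopsis loci best. By their protein domain and description they fell into 5 classes: 58 pectin methylesterases, 39 inhibitor-domain proteins, 24 pectate lyases, 39 other pectin lyase-fold proteins and 26 pectin acetylesterases.

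Pectin is the gel-like polysaccharide of the plant cell wall, made in the Golgi as a largely methylated galacturonic acid chain. Pectin methylesterases remove the methyl groups in the wall, inhibitor-domain proteins of the methylesterase and invertase inhibitor family can block such enzymes, and acetylesterases remove acetyl groups. Pectate lyases and polygalacturonases, both of the pectin lyase fold, cut the demethylated chain. In leaves the balance of these activities is known to bear on wall stiffness, growth, stomatal movement and defence.

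Drought plants had their water withheld for 3 days, heat plants were held at 40 °C for 3 h, and control plants were watered normally. Growth was in soil for 35 days, with a chamber at 25 °C, 60% humidity and 16 h of light. Each group had 3 libraries of polyadenylated leaf RNA, so every mean ± SD has n = 3. Whether a group's libraries are from separate plants is not stated in the labels, and p-values therefore reflect spread that may be technical.

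Values are FPKM (fragments assigned to a gene, scaled to its coding length and to the library's total), so levels can be compared between genes. Each library held 12173804 to 12934922 assigned reads, and 1 read on 1 kb was worth 0.0773 to 0.0821 FPKM. Differences were tested with limma on log2(FPKM + 1) over 44260 genes. A gene was called changed when its Benjamini-Hochberg adjusted p was under 0.05 and its log2 change was 1 or more in either direction, and "rose" and "fell" are used of called genes alone. The log2(FPKM + 1) scale understates the change of genes near 1 FPKM. Correlations between libraries of a group were 0.984 to 0.986, against 0.805 to 0.893 between groups. Copies matched to the 4 mesophyll marker loci summed to 23850 to 24780 FPKM in drought, 26657 to 27418 in heat and 32309 to 32811 in control, although the 2 RBCS1A copies held at most 3.61 FPKM. Copies of the root endodermis markers summed to at most 2.87 FPKM. Reads of near-identical copies may have been shared out in ways the labels do not describe, which makes the level of any one of them uncertain.

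The summed level of the 186 members was 1079 ± 22.7 FPKM in drought, 2116 ± 10.2 FPKM in heat and 1658 ± 20.4 FPKM in control. A single inhibitor-domain gene, BnaA02g33370D, made the heat sum the highest. Without it the sums were 1026 ± 19.0 FPKM in drought, 1189 ± 10.1 FPKM in heat and 1510 ± 15.5 FPKM in control, so that both treatments stood below control.

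The methylesterases had the highest summed level of the 5 classes in drought and in control, 444 ± 1.43 FPKM in drought, 507 ± 5.07 FPKM in heat and 754 ± 13.6 FPKM in control. The pectate lyases were the least abundant class, at 37.0 ± 1.03 FPKM in drought, 61.7 ± 1.42 FPKM in heat and 107.7 ± 6.71 FPKM in control. In both classes, the libraries of each treatment lay below all controls. The inhibitor-domain proteins summed to 148 ± 11.9 FPKM in drought, 1162 ± 10.1 FPKM in heat and 310.1 ± 7.45 FPKM in control, and without BnaA02g33370D to 95.0 FPKM in drought, 234 FPKM in heat and 162 FPKM in control.

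The acetylesterases summed to 333 ± 8.99 FPKM in drought, 226 ± 3.03 FPKM in heat and 333 ± 8.85 FPKM in control. BnaC02g31500D alone supplied 39.0% of the drought sum, and without that gene the sum was 203 ± 7.63 FPKM in drought, 203 ± 2.36 FPKM in heat and 259 ± 6.03 FPKM in control. As deposited, the ratio of heat to drought was 0.678 with it and 0.997 without it, and with trimmed-mean scaling factors 0.561 with it and 0.825 without it. The lyase-fold proteins summed to 117 ± 3.22 FPKM in drought, 159.7 ± 8.33 FPKM in heat and 154 ± 2.75 FPKM in control. Their ratio of heat to control, 1.04, was 0.912 with trimmed-mean scaling factors and 0.825 without their most abundant member, so its side of 1 was not stable.

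**Figure D1:**
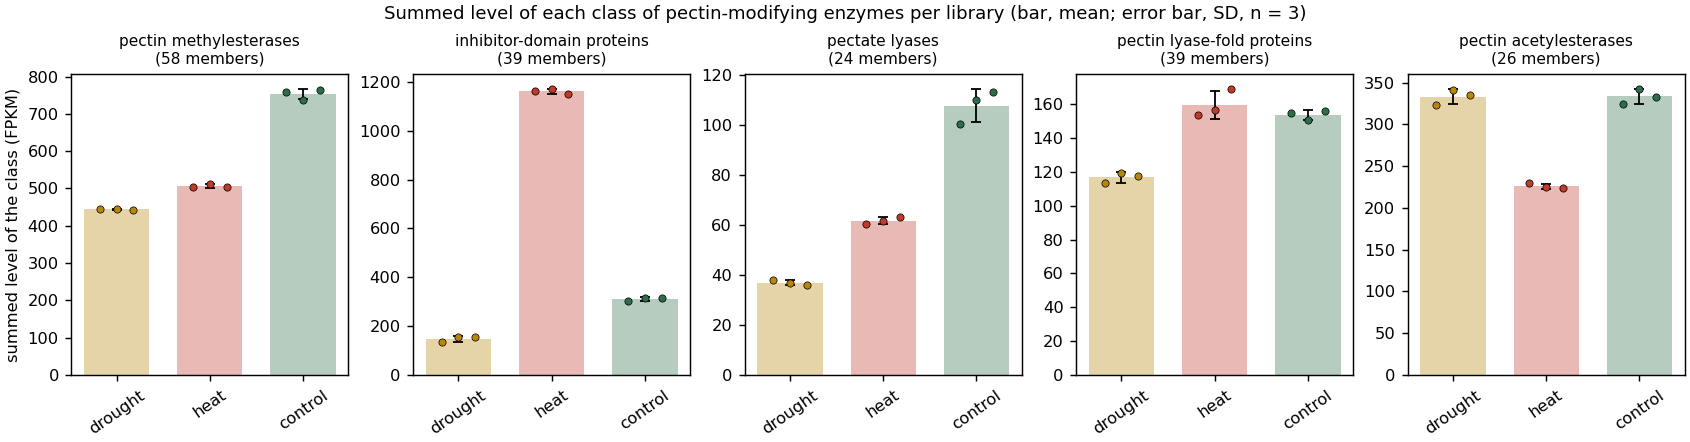
Summed level of each class of pectin-modifying enzymes in FPKM, 1 panel per class with its own linear axis from 0; bars are means of 3 libraries, points are libraries and error bars are SDs, for drought, heat and control. The inhibitor-domain panel peaks in heat at 1162 FPKM, the pectate lyase and methylesterase panels are highest in control, and the acetylesterase panel is lowest in heat at 226 FPKM, against 203 FPKM in both treatments without BnaC02g31500D.

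Single genes dominated some classes. BnaA02g33370D made up 35.8% of the inhibitor-domain sum in drought, 79.8% in heat and 47.7% in control. Among pectate lyases, BnaA04g03820D made up 38.8% of the drought sum, against 11.1% in heat and 10.3% in control. The 3 most abundant methylesterases held 34.9% of their class sum in drought, 30.0% in heat and 32.6% in control, so that sum was spread over more genes.

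Drought against control asked how the leaf responds to withheld water. Most members that changed fell: 16 rose and 58 fell among 186, with a median log2 change of -0.50. Over all 44260 genes tested, 5.12% rose and 6.87% fell, 12.0% in all, with a median of -0.06. The level criterion itself bears on these counts, since a gene that reached 1 FPKM in 1 group alone had to differ. All 3 libraries reached 1 FPKM in drought alone for 19 members, in heat alone for 20, in control alone for 19 and in every group for 85. Of the 16 rises 14 met the criterion through drought alone, with fewer than 3 other libraries at 1 FPKM, and of the 58 falls 14 met it through control alone, so no support is drawn from the 16 rises. Among the 67 members averaging at least 5 FPKM over the 9 libraries, 0 rose and 27 fell, a median of -0.83, while 1505 genes rose and 1758 fell among the 22970 tested at that level, a median of -0.03.

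Of the pectate lyases 16 of 24 fell in drought and 0 rose. Some of these falls were of members that met the level criterion through control alone, named by locus below. Of the methylesterases 7 rose and 25 fell among 58, of the inhibitor-domain proteins 5 rose and 9 fell among 39, and of the lyase-fold proteins 3 rose and 6 fell among 39. The acetylesterases had 1 rise and 2 falls among 26. Class medians of the log2 change were -1.20 for pectate lyases, -0.63 for methylesterases, -0.49 for acetylesterases, -0.35 for inhibitor-domain proteins and -0.30 for lyase-fold proteins. The mesophyll marker copies moved in the same direction: 13 of 19 tested fell in drought and 0 rose, and their part in these counts was not tested. In leaf RNA taken whole, fewer cells of a type and less RNA per cell cannot be told apart.

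**Figure D2:**
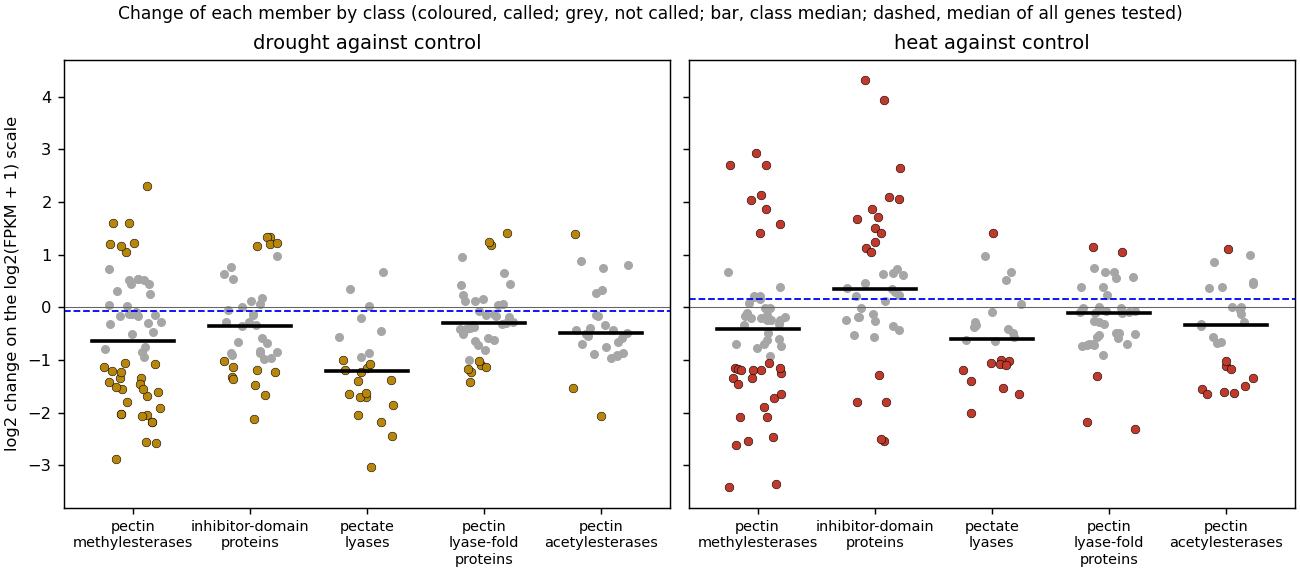
Log2 change of each member on the log2(FPKM + 1) scale, drought against control at left and heat against control at right, by class; coloured points are called genes, grey points are not called, black bars are class medians and the dashed line is the median of all genes tested. The pectate lyase points sit mostly below 0 in drought, with a median of -1.20, and the inhibitor-domain points reach 4.31 in heat.

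Pectate lyases cut demethylated pectin by elimination. The largest fall among members in drought was that of BnaA09g06500D, matched to AT5G63180. It had 0.383, 0.0630 and 0.426 FPKM in drought, 3.18, 3.16 and 4.50 FPKM in heat and 8.57, 9.22 and 10.7 FPKM in control. The 3 groups did not overlap, and the log2 change in drought was -3.03 ± 0.16 (SE), adjusted p = 4.21e-08. All 4 members matched to AT5G63180 fell, with summed levels of 2.49 ± 0.367 FPKM in drought and 28.1 ± 2.76 FPKM in control. Among them, BnaC03g74840D met the level criterion through control alone.

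BnaC01g16630D, matched to AT4G24780, had 1.68, 2.06 and 1.60 FPKM in drought, 4.81, 4.05 and 4.55 FPKM in heat and 8.58, 11.4 and 11.7 FPKM in control. Its drought libraries all lay below its heat libraries, which lay below its controls, and its log2 change in drought was -2.05 (SE 0.13, adjusted p = 2.3e-07). BnaA01g14130D of the same locus had 2.76, 2.59 and 2.63 FPKM in drought and 8.77, 12.0 and 12.4 FPKM in control, a log2 change of -1.71. All 6 members at AT4G24780 fell in drought, and so did all 4 at AT1G04680, whose sum was 2.64 ± 0.241 FPKM in drought and 13.9 ± 1.85 FPKM in control. All 4 at AT1G04680 met the level criterion through control alone, as did BnaA03g46920D and BnaC07g39100D at AT4G24780. Their falls follow in part from the choice of members and are given as a description. The most abundant pectate lyase went the other way without being called: BnaA04g03820D, matched to AT3G55140, had 13.4, 14.5 and 15.2 FPKM in drought and 12.3, 10.8 and 10.2 FPKM in control, a log2 difference of 0.34 (adjusted p = 0.0117). Its drought libraries lay above its controls, by less than the fold threshold.

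Among the methylesterases, the copies of PME61 fell together in drought. This is the table's symbol for AT3G59010, known in Arabidopsis as PME35 and for its part in the mechanical strength of the stem. All 7 members fell, with summed levels of 43.7 ± 1.10 FPKM in drought, 117 ± 1.68 FPKM in heat and 178 ± 7.98 FPKM in control. The most abundant, BnaC04g23290D, had 22.0, 21.3 and 23.7 FPKM in drought, 47.1, 45.7 and 52.0 FPKM in heat and 76.6, 71.5 and 74.7 FPKM in control. Its 3 groups were ordered drought, heat, control without overlap, and the log2 change in drought was -1.69 ± 0.07 (SE), adjusted p = 2.61e-09. The copy with the largest fall of the locus was BnaA09g55410D, at 0.201 ± 0.134 FPKM in drought, 1.07 ± 0.192 FPKM in heat and 7.85 ± 1.61 FPKM in control. This copy met the level criterion through control alone, as did BnaAnng36170D of the same locus. BnaA09g55410D fell in heat as well, with a log2 change of -2.09, but the 7 copies summed did not pass the threshold in heat (-0.61).

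PME3 (AT3G14310), a methylesterase that in Arabidopsis affects susceptibility to nematodes and to a necrotrophic fungus, had 10 members, and 8 of them fell in drought. BnaC05g39340D, the most abundant of them in control, had 2.68, 3.25 and 2.37 FPKM in drought, 8.10, 7.79 and 7.32 FPKM in heat and 21.0, 20.7 and 21.9 FPKM in control. All 3 groups were apart, and the drought change was -2.57 ± 0.10 (SE), adjusted p = 3.23e-09. BnaC09g50270D, a methylesterase matched to AT5G04970, had 0.615, 0.886 and 0.315 FPKM in drought and 5.67, 6.20 and 6.61 FPKM in control, a log2 change of -2.17 ± 0.14 (adjusted p = 1.56e-07). BnaCnng60750D, matched to ATPMEPCRB (AT4G02330, PME41 in Arabidopsis, where it is linked to chilling), had 2.51, 4.15 and 3.41 FPKM in drought and 17.6, 17.7 and 20.4 FPKM in control. Its groups were apart and its log2 change was -2.18. The most abundant methylesterase, BnaA06g16090D, was lower in all 3 drought libraries than in any control, at 67.6 ± 2.26 FPKM in drought against 117 ± 2.77 FPKM in control, but its log2 difference of -0.79 missed the fold threshold (adjusted p = 1.1e-06).

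Of the inhibitor-domain proteins, BnaA07g10080D, matched to AT1G23205, had 1.83, 1.32 and 1.39 FPKM in drought, 1.95, 0.945 and 0.116 FPKM in heat and 11.0, 8.44 and 10.2 FPKM in control. Drought and heat overlapped each other and both lay below control, with a drought change of -2.11 ± 0.28 (SE), adjusted p = 8.59e-05. The most abundant member of all, BnaA02g33370D, also fell in drought, to 47.7, 53.0 and 58.4 FPKM against 138, 154 and 152 FPKM in control, a log2 change of -1.47 ± 0.07 (adjusted p = 9.31e-09). The 2 acetylesterases that fell included BnaC01g11740D, matched to AT4G19410, with 1.96, 2.27 and 2.13 FPKM in drought, 8.15, 8.54 and 6.98 FPKM in heat and 12.4, 13.1 and 10.6 FPKM in control. Its groups were apart, in the order drought, heat, control, and it changed by -2.06 ± 0.11 in drought (adjusted p = 5.18e-08). BnaC02g31500D, the most abundant acetylesterase, matched to AT5G45280, was higher in drought: it had 129, 135 and 126 FPKM in drought and 71.4, 77.0 and 73.3 FPKM in control, a log2 difference of 0.81 (adjusted p = 1.83e-07). Every drought library exceeded every control, but the difference missed the fold threshold.

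The 16 members that rose in drought were low in level. Their drought means were 1.40 to 6.12 FPKM, and 15 of them averaged under 1 FPKM in control. Heat means were also under 1 FPKM for 15. They matched 10 loci, and 14 of them met the level criterion through drought alone, so that their difference follows from the choice of members and is given as a description. The highest in drought were both members at AT2G45220, of which the naming rule took the one with the larger change, BnaC03g25220D. The locus is PME17 in Arabidopsis, a pathogen-induced methylesterase. BnaC03g25220D had 5.53, 6.90 and 5.09 FPKM in drought, 0.578, 0.953 and 0.292 FPKM in heat and 0.589, 0.525 and 0.0588 FPKM in control. No heat or control library reached 1 FPKM, and no test is given for this gene.

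The following were chosen after their values were seen. BnaA03g21140D, the other member at AT2G45220, had 6.12 ± 0.591 FPKM in drought, 0.664 ± 0.0263 FPKM in heat and 1.35 ± 0.359 FPKM in control. All 4 members matched to VGD1, a methylesterase needed for pollen tube growth in Arabidopsis, rose in drought, with summed levels of 7.59, 8.23 and 7.78 FPKM in drought, 0.0900, 0.0928 and 0.180 FPKM in heat and 0.818, 0.585 and 0.724 FPKM in control. BnaC09g15790D, an acetylesterase matched to AT1G57590, was listed at 0 in all heat and control libraries and had 1.69, 1.22 and 2.10 FPKM in drought. The pair at AT3G07820 and the pair at APPB1 rose in the same comparison. These members were separate from control in every drought library. All but BnaA03g21140D met the level criterion through drought alone, so the separation follows largely from the choice of members and is given as a description.

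The pollen marker list held 3 loci, of which VGD1 is itself a member, PPME1 had 0.590 to 0.784 FPKM in drought, was listed at 0 in heat and had at most 0.215 FPKM in control, and AT5G45880 had no copy in the table. Its summed level was 8.34 to 8.82 FPKM in drought, 0.0900 to 0.180 FPKM in heat and 0.724 to 1.03 FPKM in control. A second pollen list of 10 loci was added after the values were seen. Of its 29 copies 2 were tested, both of AHA8, and 0 rose in drought. Its sum was 15.7 to 20.0 FPKM in drought, 2.22 to 3.49 FPKM in heat and 21.8 to 26.1 FPKM in control. Within it, BCP1 had 2.29 to 7.04 FPKM in drought, 0.218 to 1.09 FPKM in heat and 0.440 to 1.10 FPKM in control, AHA8 had 9.78 to 11.7 FPKM in drought, 1.87 to 2.83 FPKM in heat and 19.7 to 22.8 FPKM in control, and CNGC18 was listed at 0 throughout. AHA8 carried the sum: the other 27 copies summed to 4.45 to 8.29 FPKM in drought, 0.225 to 1.62 FPKM in heat and 2.08 to 3.56 FPKM in control, higher in every drought library than in any control. BCP1 was the largest part of that remainder in every drought library. TIP1;3 went the other way, with 0.427 to 0.974 FPKM in drought and 1.55 to 2.06 FPKM in control. The floral organ markers AP3, PI and AG summed to 0.586 to 2.11 FPKM in drought, 1.27 to 2.21 FPKM in heat and 1.45 to 1.94 FPKM in control. The part of pollen or other cells in these rises was not tested.

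**Figure D3:**
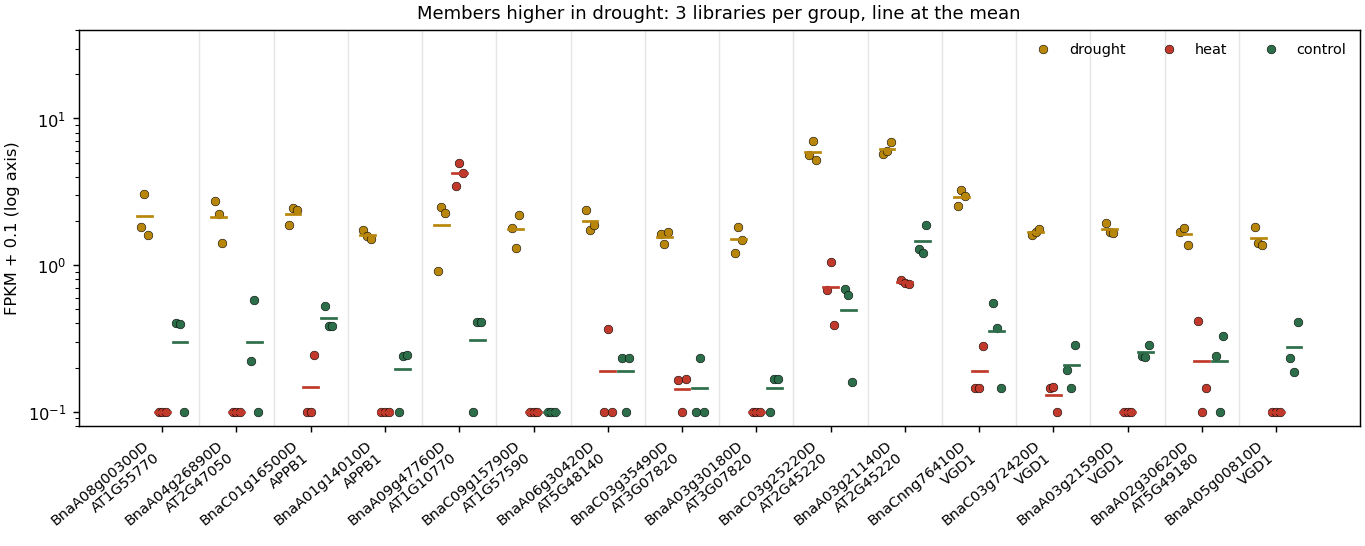
The 16 members that rose in drought against control, in FPKM + 0.1 on a log axis, with 3 libraries per group as points and a line at the group mean; drought stands left of heat and control for each gene. Drought means run from 1.40 to 6.12 FPKM, and the points at 0.1 are libraries listed at 0.

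Heat against control asked how the leaf responds to a short exposure to high temperature. The comparison shares its control libraries with the drought comparison, so the values of both are set side by side. Of the 186 members 25 rose and 48 fell, with a median log2 change of -0.25, while 14.4% of all genes tested rose and 11.2% fell, 25.6% in all, with a median of 0.16. At an average of at least 5 FPKM, 12 rose and 20 fell among 67 members, a median of -0.31, and 3312 genes rose and 3327 fell among all 22970, a median of 0.10. Trimmed-mean factors moved the median of all genes by -0.15 and gave 20 rises and 49 falls among members. Of the 25 rises 9 met the level criterion through heat alone, and of the 48 falls 15 through control alone.

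The inhibitor-domain proteins were the class with more rises than falls in heat, 13 against 5 among 39, and had a median log2 change of 0.34. Of these rises, at least both at AT5G46930, both at AT5G62360 and that of BnaA09g47760D met the level criterion through heat alone. No support is drawn from them. The methylesterases had 8 rises and 21 falls among 58 (median -0.41), the pectate lyases 1 and 10 among 24 (median -0.60), the acetylesterases 1 and 9 among 26 (median -0.33), and the lyase-fold proteins 2 and 3 among 39 (median -0.11). With trimmed-mean factors the inhibitor-domain counts were 11 and 5, and the lyase-fold and acetylesterase rises were 0 each. Of the mesophyll marker copies 2 rose and 5 fell among 19, and the loci went opposite ways. RCA summed to 8138 to 8371 FPKM in heat and 24583 to 24847 FPKM in control. CAB1 summed to 16193 to 16678 FPKM in heat and 6371 to 6577 FPKM in control, and LHCB3 to 2325 to 2368 and 1342 to 1385 FPKM. Markers of other cells moved with heat too. Both tested copies of the seed marker OLEO1, an oil body protein, rose, and its copies summed to 21.5 to 24.8 FPKM in heat and 1.60 to 3.05 FPKM in control, while CRA1, a seed storage protein, was at most 0.0570 FPKM in heat and listed at 0 in control. The 4 xylem loci summed to 5.03 to 5.72 FPKM in heat and 12.0 to 16.1 FPKM in control, with 0 rises and 2 falls among 5 tested copies. Of 7 tested phloem copies 1 rose and 3 fell: SEOR1 summed to 15.2 to 17.2 FPKM in heat and 48.9 to 51.6 FPKM in control, and SUC2 to 241 to 246 FPKM in heat and 173 to 179.8 FPKM in control. The part of these cells in the heat counts was not tested.

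BnaA02g33370D, the inhibitor-domain protein matched to AT5G62350, was the most abundant member in heat. It had 47.7, 53.0 and 58.4 FPKM in drought, 926, 927 and 929 FPKM in heat and 138, 154 and 152 FPKM in control. The groups were far apart, and heat was 6.27-fold control in the ratio of means, a log2 change of 2.64 ± 0.07 (SE), adjusted p = 4.33e-11. The other members of the locus moved less: BnaA06g21790D had 34.4 ± 2.44 FPKM in heat and 28.9 ± 1.16 FPKM in control (log2 difference 0.24, adjusted p = 0.0523).

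AT5G62360, a further inhibitor-domain locus, held the member with the largest log2 difference in heat. BnaC09g05590D had 0.274, 0.135 and 0.391 FPKM in drought, 24.6, 30.7 and 24.8 FPKM in heat and 0.394, 0.260 and 0.524 FPKM in control. It met the level criterion through its heat libraries alone, so its log2 difference of 4.31 is given as a description, with no test. Its A-subgenome copy BnaA09g06030D, chosen after its values were seen, had 0.307 ± 0.328 FPKM in drought, 17.2 ± 4.11 FPKM in heat and 0.174 ± 0.0745 FPKM in control.

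Other inhibitor-domain members rose from moderate levels. BnaA06g09680D, matched to AT1G14890, had 1.08, 0.401 and 1.16 FPKM in drought, 17.7, 14.5 and 15.6 FPKM in heat and 2.99, 4.77 and 3.24 FPKM in control. Its groups were ordered drought, control, heat without overlap, and its heat change was 1.87 ± 0.19 (SE), adjusted p = 5.11e-06. BnaA03g47250D, matched to AT4G25260, had 14.9, 15.9 and 13.9 FPKM in heat and 3.90, 2.58 and 2.21 FPKM in control, a log2 change of 2.05. BnaC06g12400D, matched to AT5G38610, had 6.73, 8.12 and 6.16 FPKM in heat and 1.29, 1.54 and 1.42 FPKM in control, a log2 change of 1.72. All heat libraries of both genes exceeded all controls. BnaA09g47760D, matched to AT1G10770, rose in both treatments, at 1.79 ± 0.856 FPKM in drought, 4.13 ± 0.761 FPKM in heat and 0.206 ± 0.178 FPKM in control. It met the level criterion through heat alone, and its drought call was lost without drought replicate 2 (log2 change 0.999).

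All 5 falls of inhibitor-domain genes in heat were at AT3G62820 or AT1G23205. Of those at AT1G23205, BnaA09g30040D and BnaCnng78530D met the level criterion through control alone, so their falls follow in part from the choice of members. BnaC08g32510D had 3.60, 6.11 and 5.08 FPKM in drought, 0.814, 2.38 and 2.06 FPKM in heat and 17.6, 15.5 and 9.93 FPKM in control, with a heat change of -2.49 ± 0.26 (SE), adjusted p = 7.02e-06. BnaA09g40170D of the same locus had 6.92, 10.8 and 7.27 FPKM in heat and 29.4, 30.0 and 33.4 FPKM in control, a log2 change of -1.80. BnaA07g10080D at AT1G23205, described above under drought, changed by -2.55 in heat. Each of the 3 had all heat libraries below all controls.

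**Figure D4:**
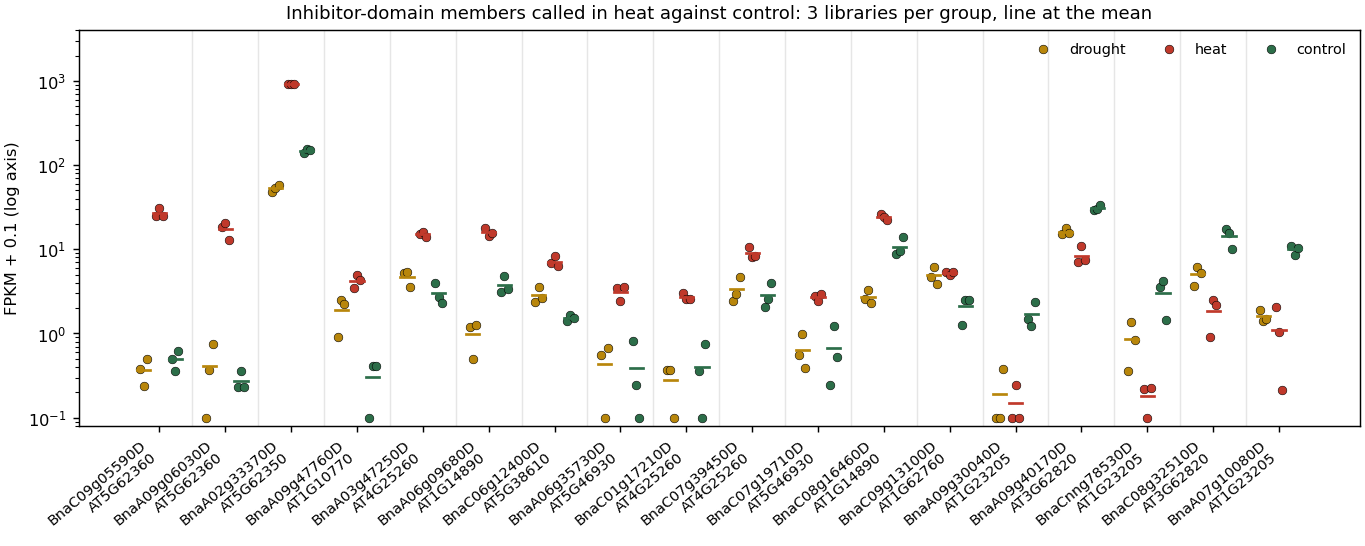
The 18 inhibitor-domain members called in heat against control, in FPKM + 0.1 on a log axis, with 3 libraries per group as points and a line at the group mean; drought stands left of heat and control. The 13 genes at left rose and the 5 at right fell in heat, and BnaA02g33370D reaches 926 to 929 FPKM in the heat libraries.

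The methylesterases that fell most in heat were matched to ATPMEPCRB. BnaAnng20820D had 4.31, 4.35 and 4.54 FPKM in drought, 0.338, 0.597 and 0.391 FPKM in heat and 15.7, 13.8 and 13.5 FPKM in control. The groups did not overlap, in the order heat, drought, control, and the heat change was -3.41 ± 0.11 (SE), adjusted p = 4.55e-10. BnaCnng60750D changed by -3.35 in heat, to 0.887, 0.853 and 1.02 FPKM. Summed over both copies, the locus had 7.79 ± 0.885 FPKM in drought, 1.36 ± 0.120 FPKM in heat and 32.9 ± 1.30 FPKM in control.

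BnaA06g16090D, matched to AT3G49220, which in Arabidopsis is PME34, a methylesterase of heat tolerance and guard cells, had 67.4, 70.0 and 65.5 FPKM in drought, 17.8, 20.0 and 17.3 FPKM in heat and 115, 116 and 120.5 FPKM in control. All groups were apart, and heat was 0.157 times control, a log2 change of -2.61 ± 0.06 (SE), adjusted p = 2.64e-11. All 4 members of the locus fell in heat. BnaA09g30050D and BnaC05g18500D, matched to AT1G23200 (PME6 of Arabidopsis, which acts in seed mucilage and in guard cells), fell in heat and were not called in drought. BnaA09g30050D had 19.4, 23.5 and 19.2 FPKM in drought, 1.90, 2.71 and 1.57 FPKM in heat and 17.3, 16.2 and 15.9 FPKM in control. BnaC05g18500D had 16.8, 20.1 and 17.6 FPKM in drought, 1.94, 1.55 and 2.36 FPKM in heat and 15.1, 14.7 and 15.4 FPKM in control. In both, heat was far below the other groups, and the heat changes were -2.53 ± 0.13 (SE), adjusted p = 2.24e-08 in BnaA09g30050D and -2.45 ± 0.11 (SE), adjusted p = 7.01e-09 in BnaC05g18500D. The guard cell markers were read alongside: FAMA, MYB60 and KAT1 copies summed to 45.8 to 56.0 FPKM in drought, 44.5 to 48.9 FPKM in heat and 52.1 to 54.5 FPKM in control, and 0 of 8 tested copies rose and 1 fell in heat. Their part was not tested.

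BnaA10g06710D, described as PMEPCRF (AT5G53370), had 50.4, 47.2 and 46.1 FPKM in drought, 14.0, 12.4 and 9.81 FPKM in heat and 55.0, 52.5 and 54.4 FPKM in control. Drought differed from control by -0.17 (adjusted p = 0.204), and heat lay below both with a log2 change of -2.08 ± 0.10 (SE), adjusted p = 1.18e-08. Of the pectate lyases, BnaA09g06500D changed by -1.19 in heat, BnaC01g16630D by -1.07 and BnaA01g14130D by -1.06, while BnaCnng15740D at AT5G63180, with 6.19, 5.58 and 7.29 FPKM in heat and 9.92, 9.34 and 10.3 FPKM in control, was not called in heat (-0.57). With copies summed, AT5G63180 was not called in heat (-0.79). Without control replicate 3 neither BnaC01g16630D (-0.996) nor BnaA01g14130D (-0.98) passed in heat, and BnaA01g14130D also missed the threshold without heat replicate 1 (-0.92).

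The acetylesterase BnaC02g31500D had 129, 135 and 126 FPKM in drought, 23.9, 22.7 and 22.7 FPKM in heat and 71.4, 77.0 and 73.3 FPKM in control. Heat was lowest and drought highest with no overlap, and its heat change was -1.64 ± 0.05 (SE), adjusted p = 2.65e-10. BnaA08g09180D, matched to AT4G19410, had 27.0, 30.5 and 29.3 FPKM in drought, 18.1, 17.0 and 17.0 FPKM in heat and 53.1, 57.0 and 54.9 FPKM in control. The groups were ordered heat, drought, control, and it changed by -1.61 in heat (SE 0.07, adjusted p = 2.57e-09). BnaA05g31410D, matched to AT3G05910, changed less than the threshold in either treatment, with 41.0 ± 0.0526 FPKM in drought, 47.5 ± 1.40 FPKM in heat and 57.8 ± 3.19 FPKM in control.

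Lyase-fold members include polygalacturonases. BnaA06g04040D, matched to AT1G48100 (PGX3, a polygalacturonase of stomata and expanding cells in Arabidopsis), had 4.52, 5.08 and 4.47 FPKM in drought, 0.381, 0.955 and 1.10 FPKM in heat and 8.83, 6.82 and 8.03 FPKM in control. Heat lay below drought, which lay below control, and the heat change was -2.31 ± 0.16 (SE), adjusted p = 2.6e-07. BnaC08g49000D, matched to AT3G61490 and the most abundant of the class, had 14.9, 15.8 and 16.8 FPKM in drought, 53.1, 49.6 and 52.5 FPKM in heat and 21.2, 23.1 and 23.8 FPKM in control. Its groups were ordered drought, control, heat, and it rose in heat by 1.15 ± 0.07 (adjusted p = 7.63e-08), which trimmed-mean factors brought to 0.97, under the threshold. BnaC02g29690D, matched to AT3G57790, and BnaC05g36500D, matched to AT3G16850, were called in neither treatment, with heat means of 8.01 ± 0.574 and 6.76 ± 1.24 FPKM against control means of 10.3 ± 0.268 and 11.5 ± 1.19 FPKM.

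Members were then read across both treatments. Since both comparisons use the same control libraries, the values of each are given side by side and no count over the pair is read as a result. Members with opposite calls against control, falling in drought and rising in heat, were methylesterases and inhibitor-domain proteins.

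The methylesterases were 5 copies of PME3 and BnaC09g50270D. BnaA01g29470D had 2.16, 1.45 and 1.21 FPKM in drought, 69.6, 75.0 and 74.5 FPKM in heat and 8.93, 8.43 and 8.58 FPKM in control. It was the most abundant methylesterase in heat and below its controls in every drought library, with log2 changes of -1.90 ± 0.12 (SE), adjusted p = 1.62e-07 in drought and 2.94 ± 0.12 (SE), adjusted p = 2.36e-09 in heat. BnaA01g37100D had 0.787, 0.436 and 0.562 FPKM in drought, 25.9, 26.7 and 23.3 FPKM in heat and 2.55, 3.27 and 3.25 FPKM in control. BnaC01g37010D had 0.277, 0.228 and 0.220 FPKM in drought, 17.7, 13.1 and 20.5 FPKM in heat and 2.08, 1.36 and 1.81 FPKM in control. Both were below control in every drought library and above control in every heat library, and heat was 8.37-fold control for BnaA01g37100D and 9.77-fold for BnaC01g37010D.

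BnaA08g00680D had 0.325, 0.321 and 0.387 FPKM in drought, 10.1, 12.1 and 9.51 FPKM in heat and 1.48, 3.09 and 2.10 FPKM in control, and BnaA03g57460D, listed at 0 in all drought libraries, had 6.18, 5.53 and 5.66 FPKM in heat and 1.66, 1.53 and 1.42 FPKM in control. Both followed the same order. BnaA03g57460D is classed as a methylesterase by its description, but its InterPro entry is the inhibitor domain, which 1 of the 58 methylesterase members has, and it encodes 220 residues. BnaC09g50270D had 28.2, 33.2 and 30.6 FPKM in heat, 4.98-fold its control mean, and a heat change of 2.14 ± 0.14 (SE), adjusted p = 9.7e-08. The 3 inhibitor-domain genes of the pattern were BnaA02g33370D, BnaA06g09680D and BnaC08g16460D. BnaC08g16460D, also matched to AT1G14890, had 2.44, 3.21 and 2.20 FPKM in drought, 26.2, 24.3 and 21.9 FPKM in heat and 8.71, 9.40 and 13.8 FPKM in control. Its groups were apart, with log2 changes of -1.67 in drought and 1.13 in heat, the second of which was 0.96 with trimmed-mean factors.

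The PME3 copies did not all share this order. Among the 10 members at the locus 8 fell in drought and 0 rose, whereas 6 rose and 1 fell in heat. BnaC05g39340D was the one that fell in heat, by -1.35 ± 0.10 (adjusted p = 4.64e-07). Summed over the copies, PME3 had 13.3, 13.3 and 11.5 FPKM in drought, 154, 158 and 166 FPKM in heat and 60.2, 60.6 and 56.2 FPKM in control. The sum was thus lowest in drought and highest in heat, with log2 changes of -2.13 ± 0.06 in drought (adjusted p = 1.08e-11) and 1.42 ± 0.06 in heat (adjusted p = 3.90e-10). The remaining copies, chosen after their values were seen to complete the locus, were BnaC01g37020D with 0.157 ± 0.0735 FPKM in drought, 4.82 ± 0.608 FPKM in heat and 0.412 ± 0.120 FPKM in control, BnaA05g25150D with 6.60 ± 0.317 FPKM in drought, 8.71 ± 2.01 FPKM in heat and 13.6 ± 0.862 FPKM in control, and the neighbouring BnaC03g38470D and BnaC03g38480D. The last pair encode 84 and 479 residues, and BnaC03g38470D was listed at 0 in all drought libraries. BnaC01g37020D and BnaC03g38470D met the level criterion through heat alone, and no support is drawn from a rise of either in heat.

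**Figure D5:**
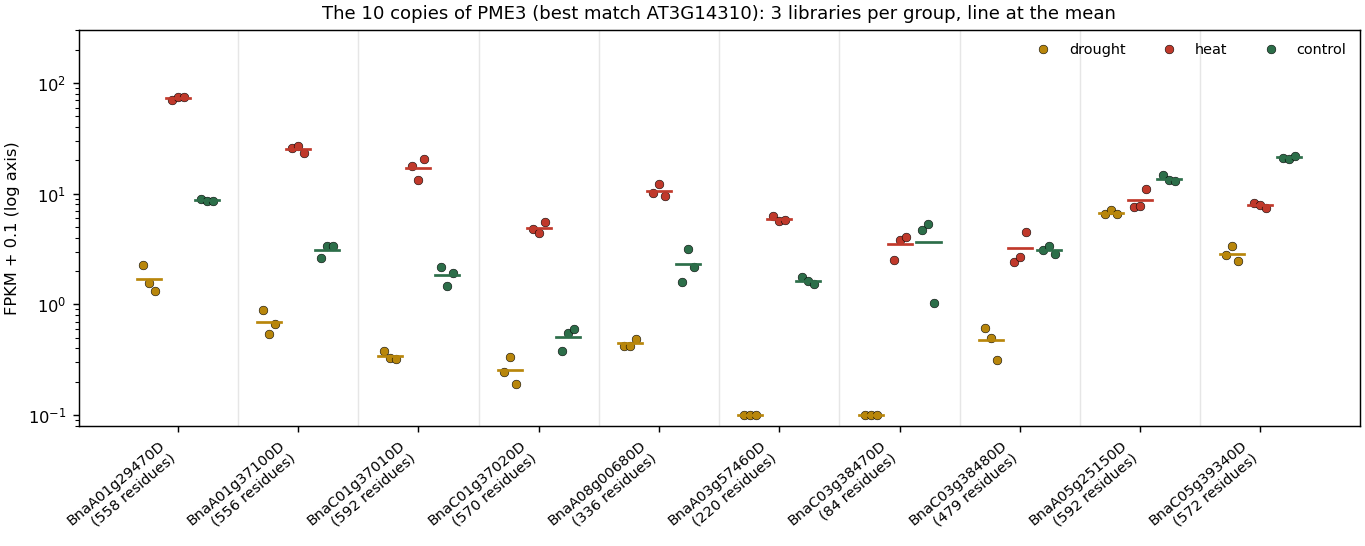
The 10 copies of PME3 (best match AT3G14310) in FPKM + 0.1 on a log axis, with the protein length under each name; points are 3 libraries per group and lines are means, with drought left of heat and control. Heat is highest in the copies at left, led by BnaA01g29470D at 69.6 to 75.0 FPKM, while control is highest in BnaA05g25150D and BnaC05g39340D at right.

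Heat against drought compared the treatments directly, without the control libraries. Of the 186 members 49 were higher in heat and 33 lower, with a median log2 difference of 0.24. Among all genes tested 17.5% were higher and 11.1% lower, 28.6% in all, with a median of 0.20. This split depended on scaling: trimmed-mean factors moved the median of all genes by -0.21 and gave 38 higher and 40 lower members, and quantile normalization gave 39 and 40. As deposited, 59.8% of called members were higher in heat, against 48.7% and 49.4% under those alternatives. Of all called genes 61.3% were higher as deposited, against 46.5% and 49.5%, so the members moved with the whole table. The inhibitor-domain proteins had 17 higher and 5 lower, with 13 and 6 under trimmed-mean factors, and the pectate lyases had 6 and 0, with 6 and 1. Of the 49 members higher in heat 13 met the level criterion through heat alone, and of the 33 lower 17 through drought alone. Over all genes tested the same held for 1738 of 7756 and 481 of 4891. The pectate lyases higher in heat at AT3G09540 and PMR6 all met it through heat alone. No support is drawn from members of this kind.

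The members farthest apart between heat and drought were those already described. BnaA01g29470D differed by 4.84 ± 0.12 (SE), adjusted p = 3.18e-11. BnaC09g05590D differed by 4.45 and BnaC09g50270D by 4.31. On the other side, BnaA09g30050D differed by -2.84 ± 0.13 (SE), adjusted p = 7.29e-09, BnaC05g18500D by -2.70 and BnaC02g31500D by -2.44. In all 6, every heat library was on one side of every drought library.

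Copies of 1 locus were set beside each other, since oilseed rape carries an A and a C subgenome. At 53 loci there were at least 2 members, 161 in all. In drought, every member fell at 7 of these loci and every member rose at 4, and calls in both directions occurred at 0. Of the loci that rose, VGD1, AT3G07820 and APPB1 held only members that met the level criterion through drought alone. In heat the counts were 9 loci all lower and 2 all higher, and PME3 alone had calls in both directions. The 2 all higher, AT5G46930 and AT5G62360, held only members that met the criterion through heat alone. AT1G04680, all lower in drought and in heat, held only members that met it through control alone. Between heat and drought, 7 loci were all higher, 7 all lower and 0 mixed. Here AT5G46930 and AT5G62360 were again all higher, and VGD1, AT3G07820 and APPB1 all lower. The same shares over all loci with several copies were not computed, so these counts are a description and no result about the members.

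The A subgenome held 98 members and the C subgenome 88. In drought, 10 A members rose and 30 fell, beside 6 and 28 C members, and in heat 12 rose and 25 fell beside 13 and 23. Of all genes tested, 21296 were of the A and 22861 of the C subgenome. Their called shares by subgenome were not computed, so no difference between subgenomes is read from these counts. At 29 loci there was exactly 1 A and 1 C copy. Both copies were called at 5 of the 29 in drought, 7 in heat and 11 between heat and drought, and 0 of those were opposed. Over all genes tested, 5931 loci had 1 copy of each. Both copies were called at 6.76% of these in drought, 14.7% in heat and 16.8% between heat and drought, against 17.2%, 24.1% and 37.9% of the 29. Some member pairs met the level criterion through 1 group alone, such as those at AT3G07820 and AT5G62360, so no support is drawn from these shares. Among the 5931 loci, of those with both called 0.998% were opposed in drought, 4.92% in heat and 3.11% between heat and drought, so the 0 is near the background. The A copy was the more abundant at 15 of the 29, and the copies were within 2-fold of each other at 18. In 5 cases 2 members with consecutive identifiers matched the same locus, such as BnaC04g23280D and BnaC04g23290D at PME61 with 88 and 364 residues, the first chosen after its values were seen. Short neighbours of this kind may share reads with the longer gene, which cannot be checked from the table.

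Other genes of pectin metabolism were read from lists matched by Arabidopsis locus. In drought, of 64 tested genes of homogalacturonan synthesis and methylation 0 rose and 4 fell (median -0.13), and of 32 genes of nucleotide sugar supply and 19 of rhamnogalacturonan I synthesis 0 rose and 0 fell (medians -0.27 and -0.05). In heat the same lists had 2 rises and 8 falls (median -0.06), 0 and 12 (median -0.65) and 0 and 9 (median -0.86), in that order. Over all genes tested 5.12% rose and 6.87% fell in drought, and 14.4% rose and 11.2% fell in heat. The homogalacturonan falls, 6.25% in drought and 12.5% in heat, were near those shares. In heat 37.5% of the nucleotide sugar list and 47.4% of the rhamnogalacturonan I list fell, and the difference from all genes was not tested.

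QUA2, a methyltransferase-like protein of homogalacturonan synthesis in Arabidopsis, fell in both treatments at BnaC06g38740D, with 17.4, 17.1 and 15.4 FPKM in drought, 17.4, 18.8 and 17.7 FPKM in heat and 89.4, 94.4 and 88.7 FPKM in control. Drought and heat overlapped, far below control, with log2 changes of -2.38 in drought (adjusted p = 1.54e-10) and -2.28 in heat (adjusted p = 1.51e-10). UGD3 makes UDP-glucuronic acid, and its copy BnaA10g18700D had 56.2 ± 3.43 FPKM in drought, 3.13 ± 0.180 FPKM in heat and 45.5 ± 3.72 FPKM in control, a heat change of -3.49 ± 0.08 (SE), adjusted p = 2.5e-11. RRT1 adds rhamnose to the rhamnogalacturonan backbone, and BnaA03g05620D fell in heat to 4.19 ± 0.607 FPKM against 20.3 ± 0.167 FPKM in control (-2.04).

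Further lists held genes that act on or sense pectin in the wall. Of 16 subtilases, the proteases that include processors of methylesterases, 0 rose and 6 fell in drought (median -0.90) and 1 rose and 7 fell in heat (median -0.85). SBT1.7 at BnaCnng28690D had 27.2, 27.6 and 27.5 FPKM in drought, 26.4, 26.3 and 26.0 FPKM in heat and 75.9, 77.2 and 76.3 FPKM in control, and changed by -1.45 in drought and -1.51 in heat. Of 19 receptors 0 rose and 3 fell in drought (median -0.30) and 1 rose and 4 fell in heat (median -0.34), and the wall-associated kinase WAK2 at BnaCnng45070D had 6.80 ± 0.468 FPKM in drought, 2.59 ± 0.565 FPKM in heat and 20.3 ± 0.445 FPKM in control. Of 15 polygalacturonase inhibitors and oligogalacturonide oxidases 0 rose and 4 fell in drought (median -0.30) and 3 rose and 6 fell in heat (median -0.48), among them OGOX1 at BnaC01g12320D, which had 72.8 ± 3.03 FPKM in drought, 20.7 ± 0.267 FPKM in heat and 109 ± 1.67 FPKM in control. Of 3 tested pectate lyases outside the members 1 rose and 2 fell in drought and 0 were called in heat. One of them, BnaA07g06080D (AT3G24230), had 0.289 ± 0.149 FPKM in drought, 3.33 ± 0.0587 FPKM in heat and 2.46 ± 0.268 FPKM in control. The 2 tested rhamnogalacturonan lyases were called in neither treatment. Falls made up 37.5% of the subtilases in drought and 43.8% in heat. For the receptors these shares were 15.8% and 21.1%, and for the inhibitors and oxidases 26.7% and 40%. Over all genes tested 5.12% rose and 6.87% fell in drought, and 14.4% rose and 11.2% fell in heat. The differences from all genes were not tested.

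The level criterion separated genes of close values. Just inside it, BnaA10g23870D had 1.13, 1.12 and 1.01 FPKM in drought and at most 0.145 FPKM elsewhere, and BnaA09g20980D had 1.51, 0.907 and 2.80 FPKM in heat with 1.02 FPKM as its highest control. Just outside it, BnaC06g31540D had 0.995, 1.15 and 1.39 FPKM in drought, and BnaC05g46130D had 1.04, 0.591 and 1.04 FPKM in control. By class, 58 of 188 methylesterases, 39 of 205 inhibitor-domain proteins, 24 of 61 pectate lyases, 39 of 250 lyase-fold proteins and 26 of 54 acetylesterases met it, 24.5% in all, against 43.8% of the whole table.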

How the data were processed

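RNA was measured in 9 leaf libraries, 3 each of drought, heat and control, and the 14 samples of the other species in the series were not analysed here. The column names lack the species. They were taken as Brassica napus because the table carries that species' sample code and gene models. The authors deposited FPKM values without naming the unit or how it was computed. The unit was read from the values: multiplied by coding length (protein length with its stop, in bases) they are whole multiples of 1 step per library, within 0.01, for 88024 genes. That is 99.6% of the 88392 genes with a protein length. RPKM would fit as well. Reads were aligned with HISAT2, per the submitters' processing notes, with version, genome build and counting tool not given in the sources used here.

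Classes rest on the 1 InterPro entry the table gives per gene and on its description, since the several entries planned for were not there. The description decided for 10 of 58 methylesterases. limma 3.58.1 (R 4.3.3, the data.table package (1.17.8)) fitted log2(FPKM + 1) for genes of at least 1 FPKM in at least 3 libraries, with 1 mean per group, trend and robust moderation. Benjamini-Hochberg adjustment was made over all genes tested in each comparison. Tables and figures used Python 3.11.15, pandas 2.3.3, NumPy 2.4.6 and Matplotlib 3.10.9. The members, lists and alternatives were chosen with earlier results of these data known.

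Genes were named by rule: for each treatment the 8 largest rises and falls among called members that average at least 3 FPKM in the group where they are higher and whose treated libraries all lay beyond the controls, 1 per locus, the 3 most abundant of each class, those called in opposite directions, the 3 most different between heat and drought each way, the 2 nearest the level criterion on each side, and 1 per pathway list. In simulated data, changes were placed only in genes of at least 5 FPKM in control. For drought against control (39247 genes), 100% of 3-fold and 4-fold rises and 14.7% of 2-fold rises were recovered. So were 30.3% of 0.5-fold falls and 100% of 0.333-fold falls, and 0.00768% of unchanged genes were called. For heat against control, 100% of 3-fold rises, 20.6% of 2-fold rises, 24.2% of 0.5-fold falls and 97% of 0.333-fold falls were recovered. The median control level of the members was 3.38 FPKM, and recovery at such lower levels was not tested.

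Alternatives were trimmed-mean factors, quantile normalization, a pseudocount of 0.1, a filter of 5 FPKM or none, no trend or robust moderation, no fold threshold, the replicate number as a block, voom on the recovered reads, copies of a locus summed, and each library left out. Leaving out the leading member of a class sum was added after the data were seen. No promoter, protein or genome sequence was used here.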

Additional observations from a re-analysis of the deposited data

How the results depend on the processing

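More members fell than rose against control under every alternative, while between heat and drought trimmed-mean factors (38 higher, 40 lower) and quantile normalization (39, 40) turned the balance. Those scalings gave 18 and 54 and 18 and 51 in drought, and 20 and 49 and 23 and 49 in heat. Without a fold threshold they were 36 higher and 101 lower in drought, 47 and 83 in heat, and 82 and 60 between heat and drought. With a filter of 5 FPKM, which left 88 members, they were 2 and 36 in drought, 18 and 27 in heat, and 32 and 14 between heat and drought. That filter removes most of the low genes that rose in drought. A pseudocount of 0.1 gave 22 and 79 in drought, 32 and 57 in heat and 67 and 45 between them, and voom on whole reads gave 22 and 78, 33 and 59, and 70 and 47. Whole reads were recovered for 99.6% of genes with a protein length, and voom was fitted on 42516 of the 44260 genes tested. Over all genes voom called 3140 higher and 4826 lower in drought and 8679 and 6490 in heat. Leaving out 1 library gave 15 to 18 higher and 55 to 59 lower in drought, 25 to 27 and 43 to 48 in heat, and 46 to 54 and 31 to 36 between heat and drought. With the replicate number as a block, the counts were 16 and 58, 25 and 48, and 49 and 33, the same as without it. Deviations of same-numbered libraries correlated at -0.018 to 0.025, so the numbers give no sign of a pairing.

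Among log2 changes of named members, 2 reversed when copies of a locus were summed: BnaC05g39340D in heat against control (1.42) and BnaC01g11740D in heat against drought (-0.30), since other copies then dominate the sum. Summing copies also took 2 of 84 called changes below the threshold, trimmed-mean factors 6, quantile normalization 2 and leaving out any 1 library at most 2. Where no alternative's construction shows it, the cause was not tested. Depth limits low members: 1 read on 1 kb is 0.0773 to 0.0821 FPKM, and the drought means of the 16 that rose were 1.40 to 6.12 FPKM.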

Other observations

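Some members were listed at 0 in every library of a group: 2 in drought, 8 in heat and 1 in control. Named beyond the rule after their values were seen, BnaA08g00300D (AT1G55770) and BnaA04g26890D (AT2G47050), both inhibitor-domain genes, were listed at 0 in all heat libraries and averaged 2.06 ± 0.779 and 2.03 ± 0.668 FPKM in drought and 0.200 ± 0.173 and 0.200 ± 0.249 FPKM in control. Each met the level criterion through drought alone, so the values are a description.

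PGIP1, a polygalacturonase inhibitor of defence in Arabidopsis, had copies that moved apart in heat. These copies were chosen after their values were seen. BnaA03g55610D had log2 changes of -3.50 in drought and -3.48 in heat, whereas BnaC09g48930D had 2.85 in heat and BnaA10g24090D had 1.81. BnaC09g48930D was listed at 0 in drought and had at most 0.0734 FPKM in control. It met the level criterion through heat alone, so its change is given as a description. Of the 3 tested copies matched to PMR6, a pectate lyase that affects powdery mildew growth in Arabidopsis, BnaC08g25770D had 0.0348 ± 0.0602 FPKM in drought, 1.72 ± 0.478 FPKM in heat and 0.876 ± 0.0809 FPKM in control. This copy also met the level criterion through heat alone.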
